A study of Mus musculus with 12 samples.

Results

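CXC chemokines are small secreted proteins that steer leukocytes, and each acts through a G protein-coupled receptor on the cell that moves. Cxcl9 and Cxcl10 are made by macrophages and other cells exposed to interferon gamma and draw activated T cells and NK cells through Cxcr3. Cxcl16, a membrane-bound ligand that proteases can shed, acts on Cxcr6. Cxcl13 guides B cells, Cxcl2 draws neutrophils through Cxcr2, and Cxcl12 from marrow stroma holds blood stem cells and neutrophils in the marrow through Cxcr4. These 10 genes, chosen by symbol as ligand and receptor pairs, were followed in macrophages sorted from mouse bone marrow. All 10 were found among 56832 gene entries of the count table, and all 10 were among the 15758 genes that passed the filter on low counts.

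The 12 RNA-seq libraries fell into 4 groups of 3: female leukemic, male leukemic, female non-leukemic and male non-leukemic mice. Leukemic mice carried transplanted cells of bcCML, a model of chronic myeloid leukemia in blast crisis, and were in late disease, labelled day 11. Non-leukemic mice are described as healthy, and a mock transplant is not mentioned. Mouse strain, age and any pooling of animals were not given in the sources used here. The sort gate for every group was CD45+ (leukocytes), F4/80+ (macrophages), Ly6g- and Ly6c-, and the labels do not say whether transplanted leukemic cells could pass it. Nothing states that replicates came from different animals, and p-values therefore reflect only how much libraries vary, which may be technical.

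Total counts ran from 22437689 to 30014855 in leukemic and from 16911827 to 26611831 in non-leukemic libraries. A count of 0 allows up to 3 counts, or 0.1 to 0.177 CPM (counts scaled to a common library total), and covers counting error only. Markers of other cells than macrophages were present. A marker is counted as risen or fallen where its edgeR adjusted p was under 0.05, as for 8.71% (higher) and 9.2% (lower) of all genes tested. Summed over 12 genes each, macrophage markers held 497 to 1163 CPM in leukemic and 1239 to 4574 CPM in non-leukemic libraries. Of these 12, 7 fell, and the median log2 fold change of the 12 was -1.17. T and NK cell markers held 1271 to 2528 CPM in leukemic and 302 to 587 CPM in non-leukemic libraries, and 12 of 12 rose. Neutrophil markers held 12367 to 26161 CPM in leukemic and 28071 to 64563 CPM in non-leukemic libraries, and 8 of 12 fell. Progenitor and blast markers, 7 genes, held 1032 to 1744 CPM in leukemic and 570 to 926 CPM in non-leukemic libraries, and 6 of 7 rose. Among all markers searched only Ebf3, a factor of marrow stroma, was at 0 in every library. In bulk libraries fewer cells of a type and less RNA per cell cannot be told apart. Female leukemic replicate 1 had counts in 17891 genes, against 19521 to 21247 elsewhere, and 45263 CPM in 10 B and plasma cell markers, against 2926 to 33456 CPM in the other leukemic libraries. Male non-leukemic replicate 3 had the 4574 CPM of macrophage markers, against 1239 to 1704 CPM in the other non-leukemic libraries.

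The promoters of 3 ligands are shown because Cxcl9 and Cxcl10 rose together and Cxcl2 did not pass the test. Each is the stretch of 250 bases before the gene's start, 5′ to 3′ on the gene's strand, from RefSeq on GRCm38.p6, an older build than the GRCm39 named for the counts. Capitals mark matches on either strand to an interferon-stimulated response element (GAAA, 2 free bases, GAAA) or a kappaB element (GGGA, 4 free bases, CC).
Cxcl9, chr5:92328080-92328329, minus strand: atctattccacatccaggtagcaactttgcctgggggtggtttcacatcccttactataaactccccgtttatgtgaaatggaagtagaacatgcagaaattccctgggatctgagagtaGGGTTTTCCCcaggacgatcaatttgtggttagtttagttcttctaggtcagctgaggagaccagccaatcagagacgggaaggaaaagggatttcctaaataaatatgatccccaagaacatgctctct
Cxcl10, chr5:92348890-92349139, minus strand: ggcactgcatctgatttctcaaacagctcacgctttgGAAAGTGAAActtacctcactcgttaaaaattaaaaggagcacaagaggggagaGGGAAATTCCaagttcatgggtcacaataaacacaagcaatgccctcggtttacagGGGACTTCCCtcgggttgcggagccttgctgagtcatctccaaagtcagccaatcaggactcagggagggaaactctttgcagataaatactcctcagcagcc
Cxcl2, chr5:90903649-90903898, plus strand: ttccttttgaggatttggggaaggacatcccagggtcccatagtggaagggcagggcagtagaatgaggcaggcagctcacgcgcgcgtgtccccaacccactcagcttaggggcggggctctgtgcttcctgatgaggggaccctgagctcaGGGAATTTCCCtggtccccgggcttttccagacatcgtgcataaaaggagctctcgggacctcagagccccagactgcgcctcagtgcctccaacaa
The interferon element was found in Cxcl10 alone among the 9 members with a promoter in the table, at -213 to -204 from the start, and in 2.98% of all 32851 promoters of this length. The kappaB letters were found in Cxcl9 (-130 to -121), at 2 places in Cxcl10 (-159 to -150 and -103 to -94), in Cxcl2 as overlapping matches from -97 to -87, and in Cxcl13. They occurred in 17.6% of all promoters. The gamma-activated site (TTC, 3 free bases, GAA) matched none of the 9 and 7.02% of all promoters. Motifs of different kinds did not overlap in these windows. A match is a description of letters and not a mapped site. Cxcl16 is not in the promoter table.

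The first question was which ligands and receptors differ in late disease. The interferon-inducible ligands Cxcl9 and Cxcl10, their receptor Cxcr3 and the Cxcl16 receptor Cxcr6 rose in leukemic libraries, by fitted folds of 3.57 for Cxcr3 to 6.83 for Cxcl9 (log2 fold changes of 1.84 ± 0.25 and 2.77 ± 0.40, SE, n = 6 per state). The other 6 genes did not pass. With edgeR's quasi-likelihood test, adjusted over all genes, 4 of 10 members passed and all 4 were higher, while 17.9% of all genes tested passed, 8.71% higher and 9.2% lower. At an unadjusted p under 0.05 stood 6 members, with Cxcl13 and Cxcl12 added, and 30.2% of all genes tested. The median log2 fold change was 1.10 over the 10 members and -0.01 over all genes tested. The 4 called members also had every leukemic library above every non-leukemic library, which held for 5.05% of all genes tested, beside 3.63% with every leukemic library lower and 8.68% in either direction.

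**Figure D1:**
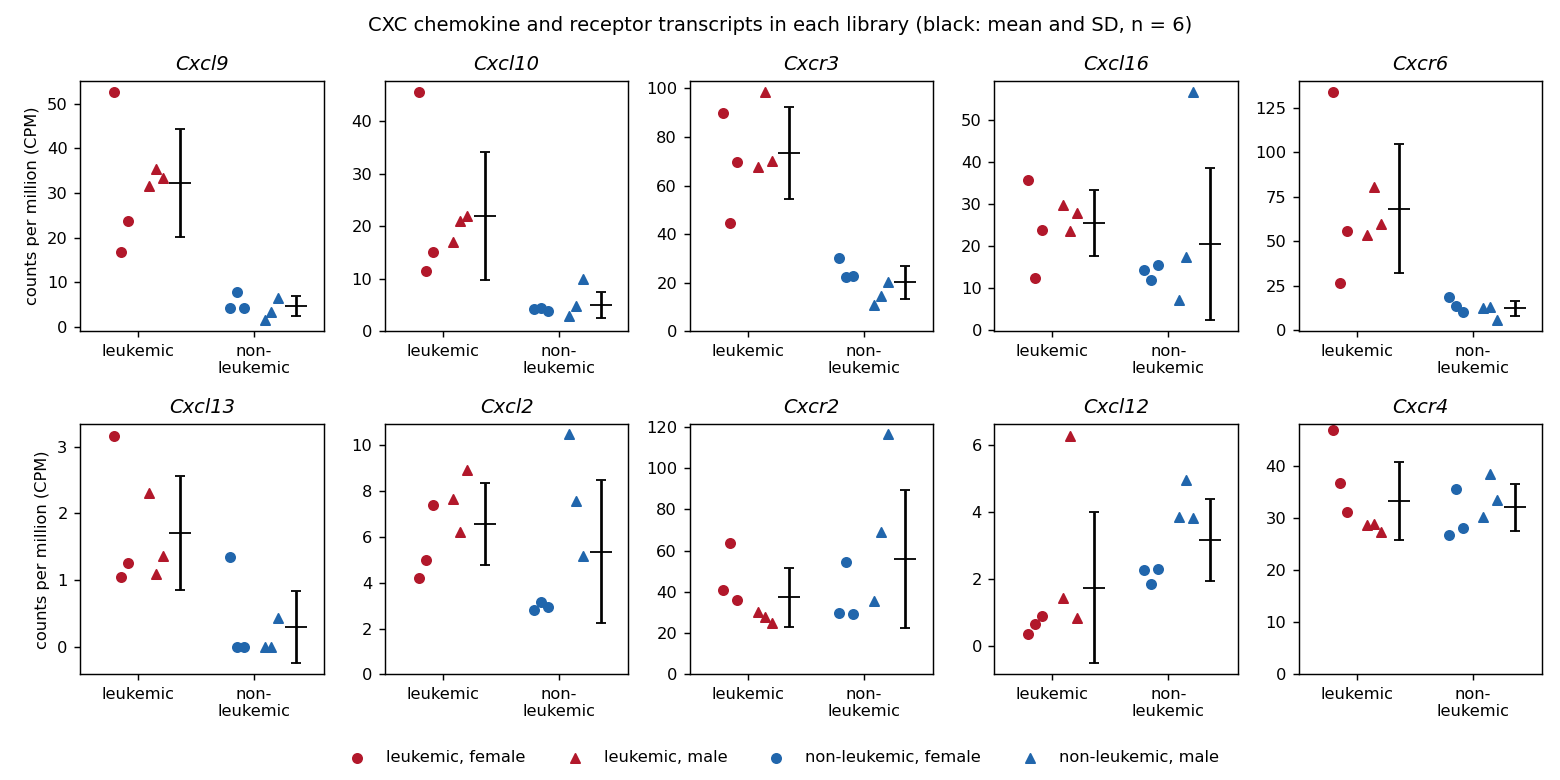
CPM of each of the 10 genes (one panel each, linear axes that differ between panels) in leukemic and non-leukemic libraries, with circles for female and triangles for male mice, and the mean and SD of 6 libraries in black. Cxcl9, Cxcl10, Cxcr3 and Cxcr6 show no overlap between the states. A single library stands apart from the others of its state for Cxcl16 (56.7 CPM in male non-leukemic replicate 3) and Cxcl12 (6.29 CPM in male leukemic replicate 2). The same holds for Cxcl10 in both states (45.5 CPM in female leukemic replicate 1, 9.97 CPM in male non-leukemic replicate 3). It also holds for Cxcl13 (1.34 CPM in female non-leukemic replicate 1).

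Cxcl9, the ligand most tied to interferon gamma, was at 52.6, 16.8 and 23.8 CPM in the female leukemic and 31.5, 35.4 and 33.4 CPM in the male leukemic libraries. It was at 4.16, 7.74 and 4.17 CPM in the female non-leukemic and 1.54, 3.31 and 6.53 CPM in the male non-leukemic libraries. The lowest leukemic library thus stood above the highest non-leukemic library. The means were 32.2 ± 12.1 CPM in leukemic and 4.58 ± 2.23 CPM in non-leukemic libraries (SD, n = 6 each), a log2 fold change of 2.77 ± 0.40 (SE, edgeR adjusted p = 0.000426).

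Cxcl10, which type I interferons and NF-kB signals also induce, was at 45.5, 11.5 and 15.1 CPM in the female leukemic and 17.01, 21.0 and 21.9 CPM in the male leukemic libraries. The non-leukemic values were 4.21, 4.34 and 3.91 CPM in females and 2.99, 4.73 and 9.97 CPM in males. The gap between the states was narrow, 11.5 against 9.97 CPM, and the highest library of each state stood far from the others of its state. The log2 fold change was 2.09 ± 0.42 (SE, edgeR adjusted p = 0.00438), and 1.61 (adjusted p = 0.00184) without female leukemic replicate 1, the highest leukemic library.

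Set against the 12 macrophage markers, Cxcl9 came to 25.7 to 45.2 CPM per 1000 CPM of marker in leukemic and 1.24 to 4.54 in non-leukemic libraries. For Cxcl10 this ratio was 15.8 to 39.1 in leukemic and 2.18 to 2.99 in non-leukemic libraries. Neither ratio overlapped between the states. The macrophage markers themselves had a median log2 fold change of -1.17, which raises such a ratio. Within a state, Cxcl9 and Cxcl10 varied together over libraries: after removing the mean of each state, but not of each sex, Spearman's rho was 0.80. It was taken over 12 libraries that share their depth and sorting. The genes most like Cxcl10 by this measure were Maf (0.97), Avpi1 (0.97) and Spic (0.96). Maf and Spic are transcription factors of macrophages, and Spic is known from the red pulp macrophages of the spleen and their marrow relatives. Those most like Cxcl9 were the DNase gene Dnase1l3 (0.96) and the lysosomal enzyme gene Ctsa (0.93), followed by Ctnnbip1 (0.91), which shared its place with other genes.

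Cxcr3, the receptor of Cxcl9 and Cxcl10 on activated T cells and NK cells, was at 89.9, 44.6 and 69.8 CPM in the female leukemic and 67.7, 98.7 and 70.0 CPM in the male leukemic libraries. It was at 30.2, 22.2 and 22.8 CPM in the female non-leukemic and 10.8, 14.5 and 20.4 CPM in the male non-leukemic libraries. The states did not overlap. The means were 73.4 ± 19.0 CPM in leukemic and 20.2 ± 6.79 CPM in non-leukemic libraries (SD, n = 6 each), a log2 fold change of 1.84 ± 0.25 (SE, edgeR adjusted p = 0.000328).

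T and NK cell markers moved with Cxcr3: their median log2 fold change was 2.40, against 1.84 for Cxcr3. Per 1000 CPM of these markers Cxcr3 came to 35.1 to 47.1 CPM in leukemic and 28.3 to 51.9 CPM in non-leukemic libraries, so this ratio overlapped between the states. Nkg7 weighed most in that sum, at a mean of 697 CPM in leukemic and 291 CPM in non-leukemic libraries. It rose by only 1.19 on the log2 scale, while Cd3e, Cd3g and Trac rose by 3.56, 3.37 and 3.64. The overlap thus applies to this sum only. The genes most like Cxcr3 within states were Cd3e (0.95), Cd3g (0.94) and, tied with another gene, Trbc2 (0.92), all parts of the T cell receptor complex.

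Cxcl16, a transmembrane chemokine and scavenger receptor of macrophages and dendritic cells, was at 12.5 to 35.8 CPM in leukemic libraries (median 25.8) and at 7.34 to 56.7 CPM in non-leukemic libraries (median 14.99). The states overlapped, and the highest value of all was male non-leukemic replicate 3. The log2 fold change was 0.31 ± 0.45 (SE, edgeR adjusted p = 0.699). Without that library it was 0.91 and passed narrowly (adjusted p = 0.0497). The exons of Cxcl16 overlap those of Zmynd15 on the opposite strand, which these unstranded libraries cannot separate. Zmynd15 was low, at 3.64 ± 1.12 CPM in leukemic and 2.05 ± 1.42 CPM in non-leukemic libraries (SD, n = 6 each).

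Within states, Cxcl16 varied over libraries with macrophage markers. The 3 genes most like it were C1qb, C1qc and C1qa (each 0.96), which encode the complement subunits made by tissue macrophages. Between states the 2 parted. The marker sum had a median of 1048.8 CPM in leukemic and 1568.5 CPM in non-leukemic libraries, while Cxcl16 had medians of 25.8 and 14.99 CPM. Per 1000 CPM of macrophage markers, Cxcl16 came to 23.3 to 30.8 CPM in leukemic and 5.92 to 12.4 CPM in non-leukemic libraries, which did not overlap and which put male non-leukemic replicate 3 at 12.4 CPM beside the others of its state. The fall of these markers raises this ratio, which was chosen after the values were seen and was not tested.

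Cxcr6, the receptor of Cxcl16 on tissue-resident and activated T cells, NKT cells and innate lymphoid cells, was at 134, 26.7 and 55.8 CPM in the female leukemic and 53.4, 80.3 and 59.6 CPM in the male leukemic libraries. It was at 18.6, 13.7 and 9.81 CPM in the female non-leukemic and 12.2, 12.8 and 5.67 CPM in the male non-leukemic libraries. Every leukemic library was higher, with a log2 fold change of 2.48 ± 0.37 (SE, edgeR adjusted p = 0.000630), and 2.09 without female leukemic replicate 1, the library with 134 CPM.

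Per 1000 CPM of the same sum of T and NK cell markers, Cxcr6 came to 21.0 to 52.9 CPM in leukemic and 9.66 to 40.4 CPM in non-leukemic libraries. These ranges overlapped, again for this sum only. The genes most like Cxcr6 within states were Med28 and Stard3nl (each 0.94) and Polr2l (0.93), a Mediator subunit, a late endosome protein and an RNA polymerase subunit.

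**Figure D2:**
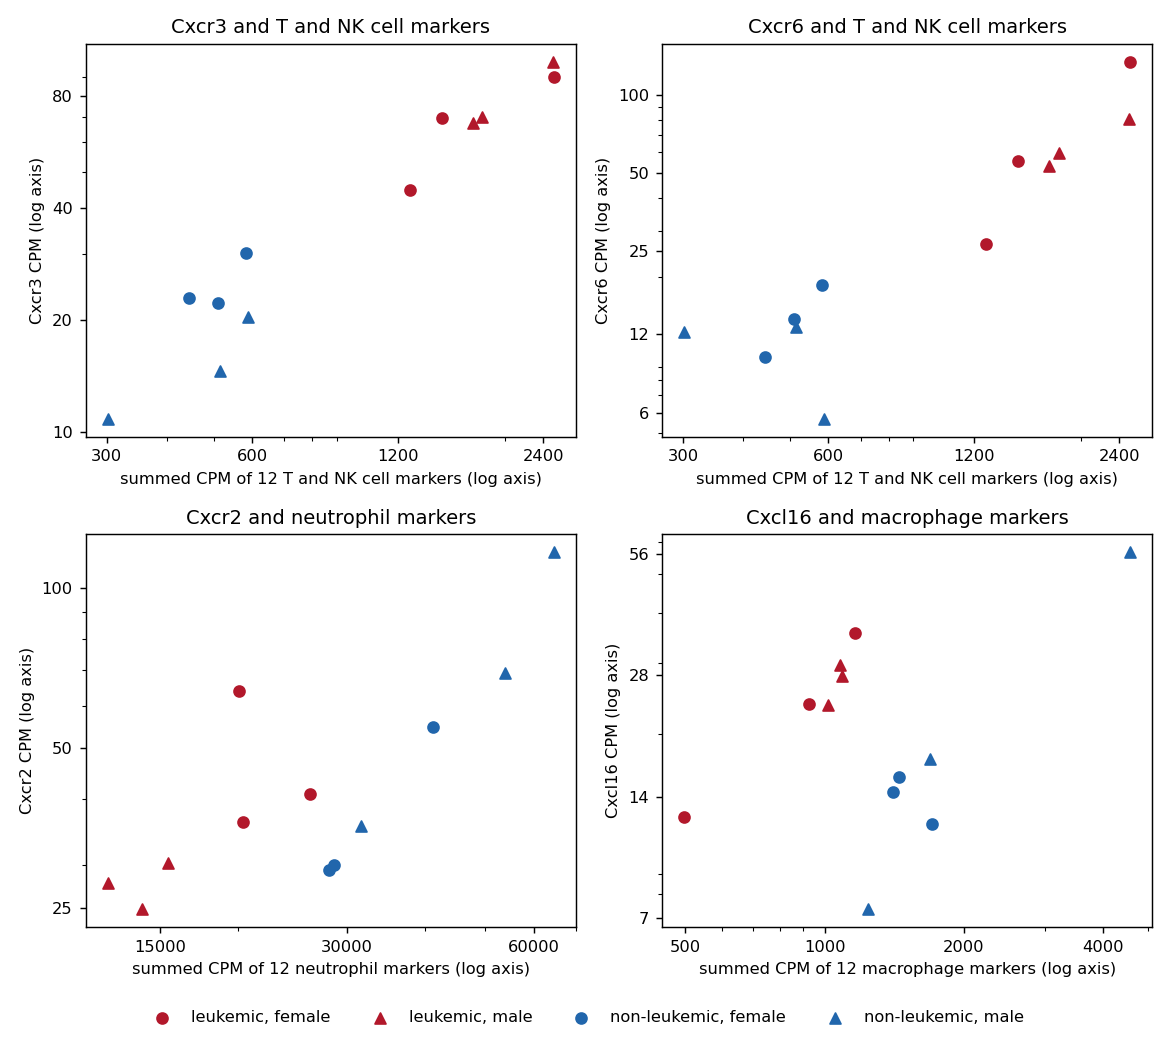
CPM of Cxcr3, Cxcr6, Cxcr2 and Cxcl16 in each library (vertical, log axes) against the summed CPM of 12 markers of the cell type that typically carries the transcript (horizontal, log axes), in red for leukemic and blue for non-leukemic libraries. Cxcr3 and Cxcr6 are higher in leukemic libraries, which also have more T and NK cell marker counts. Among non-leukemic libraries, however, male replicate 3 has the most of these marker counts (587 CPM) and the least Cxcr6 (5.67 CPM). Leukemic libraries have more Cxcl16 per macrophage marker (23.3 to 30.8 against 5.92 to 12.4 CPM per 1000 CPM).

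The ratio of ligand to receptor transcripts was compared within libraries. The log2 ratio of Cxcl16 to Cxcr6 was -1.30 ± 0.42 in leukemic and 0.51 ± 1.42 in non-leukemic libraries (SD, n = 6 each), a difference of -1.81. The exact two-sided permutation test over all arrangements of the 12 libraries gave 0.00216, the smallest p it can give (adjusted p = 0.00866 over 4 pairs). All 6 leukemic libraries lay below all non-leukemic ones. Without male non-leukemic replicate 3 the difference was -1.27 (exact permutation, adjusted p = 0.00866). The ratio of Cxcl9 and Cxcl10 together to Cxcr3 differed by 0.57 (exact permutation p = 0.0606, adjusted p = 0.104). Without male non-leukemic replicate 3 it differed by 0.72 and passed (exact permutation, adjusted p = 0.0130). The Cxcl2 to Cxcr2 ratio differed by 0.85 (exact permutation p = 0.128) and the Cxcl12 to Cxcr4 ratio by -1.09 (exact permutation p = 0.0779), the second passing only without male leukemic replicate 2 (-1.53, exact permutation, adjusted p = 0.0130). Ratios are of CPM, which are not scaled by gene length, so they compare libraries and are no levels. Cxcr6 alone had passed at a log2 fold change of 2.48, beside 0.31 for Cxcl16, so their ratio is not a result apart from Cxcr6. T and NK cell markers rose and macrophage markers fell in the same libraries, and their part in these ratios was not tested.

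Cxcl13, the ligand that gathers B cells through Cxcr5, was scarce. It had 95, 28 and 28 counts in the female leukemic and 66, 29 and 36 counts in the male leukemic libraries. It had 28, 0 and 0 counts in the female non-leukemic and 0, 0 and 10 counts in the male non-leukemic libraries, so 4 of 6 non-leukemic libraries had none. The highest non-leukemic library, at 1.34 CPM, lay within the leukemic range of 1.05 to 3.17 CPM. The log2 fold change was 2.59 ± 1.13 (SE, edgeR adjusted p = 0.139), and 4.37 (adjusted p = 0.0338) without female non-leukemic replicate 1, the library with 28 counts. With limma-voom it was 4.33 and passed (adjusted p = 0.0117). Cxcr5, the receptor, had 9.73 ± 3.93 CPM in leukemic and 4.73 ± 1.79 CPM in non-leukemic libraries (SD, n = 6 each), a log2 fold change of 0.88 ± 0.32 that did not pass (edgeR adjusted p = 0.0787). Abhd6, Tmem37 and Acp2 were most like Cxcl13 within states (0.78 to 0.82).

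Cxcl2, a neutrophil attractant that Toll-like receptor and interleukin 1 signals induce, was at 4.20, 4.98 and 7.40 CPM in the female leukemic and 7.67, 6.22 and 8.93 CPM in the male leukemic libraries. It was at 2.82, 3.15 and 2.93 CPM in the female non-leukemic and 10.5, 7.57 and 5.16 CPM in the male non-leukemic libraries. Leukemic females thus lay above non-leukemic females, while the males overlapped. Over all libraries the log2 fold change was 0.35 ± 0.27 (SE, edgeR adjusted p = 0.421). Among the 3 genes most like Cxcl2 within states was the Y-linked Eif2s3y (0.91), beside Tmem156 and Tmx3 (each 0.92), and males had more Cxcl2 than females in non-leukemic libraries.

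Cxcr2, the receptor of Cxcl2 on neutrophils, was at 24.8 to 63.9 CPM in leukemic libraries (median 33.3) and at 29.4 to 117 CPM in non-leukemic libraries (median 45.1). The states overlapped, and the log2 fold change was -0.65 ± 0.40 (SE, edgeR adjusted p = 0.305). The neutrophil markers had a median log2 fold change of -1.69. Per 1000 CPM of those markers Cxcr2 came to 1.56 to 3.17 CPM in leukemic and 1.05 to 1.81 CPM in non-leukemic libraries, with male non-leukemic replicate 3 the only one of its state within the leukemic range. The fall of these markers raises this ratio as well. Mpo weighed most in this sum in leukemic libraries, at a mean of 6118.5 CPM, against 4690.4 CPM in non-leukemic libraries. Its log2 fold change of 0.29 did not pass, while that of Ngp, which weighed most in non-leukemic libraries, was -1.85. The ratio thus applies to this sum only. The genes most like Cxcr2 within states were Cebpd (0.98), Lrg1 (0.97) and the chemokine receptor gene Ccr1 (0.96). Cebpd and Lrg1 are both known from maturing myeloid cells.

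Cxcl12, the retention signal of the marrow, was at 0.33, 0.64 and 0.89 CPM in the female leukemic and 1.44, 6.29 and 0.83 CPM in the male leukemic libraries. It was at 2.25, 1.85 and 2.29 CPM in the female non-leukemic and 3.85, 4.97 and 3.82 CPM in the male non-leukemic libraries. Leukemic libraries lay below all non-leukemic ones except for male leukemic replicate 2, which was the highest of all. The log2 fold change was -1.24 ± 0.48 (SE, edgeR adjusted p = 0.0980). It was -1.88 and passed without male leukemic replicate 2 (adjusted p = 0.00428), and it passed with limma-voom on all libraries (adjusted p = 0.0374).

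Markers of stromal and endothelial cells, 12 genes of which 8 were tested, did not move one way: 1 rose, 1 fell and the median log2 fold change was 0.53. Of all genes tested, 17.9% passed. Pecam1, an endothelial adhesion molecule also found on leukocytes, rose by 1.00 ± 0.18 and the collagen gene Col1a1 fell by 4.98 ± 1.04 on the log2 scale (SE, edgeR adjusted p = 0.00227 and 0.00523). Col1a1 was at 24.2 CPM in male leukemic replicate 2 and at most 2.03 CPM in the other leukemic libraries, against 10.4 to 332 CPM in non-leukemic libraries. Its partner Col1a2 did not single out that library, at 20.03 CPM there and 1.93 to 23.0 CPM in the other leukemic libraries, against 8.49 to 228 CPM in non-leukemic libraries. Other stromal genes on the list differed in level. Lepr was at most 0.55 CPM, Adipoq and Pdgfra at most 0.41 CPM, Kitl at most 1.68 CPM and Ebf3 at 0 in all libraries. Pdgfrb was at 10.1 to 29.9 CPM in leukemic and 9.56 to 17.4 CPM in non-leukemic libraries. The part of stromal cells in the Cxcl12 values was not tested. Vps26b (0.97), Ccdc50 (0.93) and, tied with another gene, Agps (0.92) were most like Cxcl12 within states.

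Cxcr4, the receptor of Cxcl12 on stem cells, lymphocytes and neutrophils, was at 27.4 to 47.0 CPM in leukemic libraries (median 30.01) and at 26.7 to 38.4 CPM in non-leukemic libraries (median 31.8). The ranges overlapped, with a log2 fold change of -0.02 ± 0.19 (SE, edgeR adjusted p = 0.951), and its sign turned in 8 of the 12 fits that left out a library. Over libraries Cxcr4 varied with Cxcr2 within states (Spearman's rho 0.81, 12 libraries). The genes most like it were Tmem216 (0.95), Rps4l (0.92) and Selenot (0.91).

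To see whether the change was alike in females and males, it was estimated in each sex. In females 4 of 10 members passed, Cxcl9, Cxcl10, Cxcr3 and Cxcr6, all higher, against 8.43% of all genes tested (3.84% higher, 4.59% lower). In males Cxcl9, Cxcr3 and Cxcr6 rose and Cxcr2 fell, against 7.37% of all genes tested (3.34% higher, 4.04% lower). At an unadjusted p under 0.05 stood 6 members and 23.6% of all genes in females, and 5 members and 21.5% in males. Log2 fold changes of Cxcl9 were 2.60 ± 0.57 in females and 2.95 ± 0.58 in males (SE, edgeR adjusted p = 0.0169 and 0.00996). For Cxcr6 they were 2.44 ± 0.55 in females and 2.52 ± 0.55 in males (edgeR adjusted p = 0.0187 and 0.0171). In a fit of female libraries only, Cxcr6 did not pass (2.46, adjusted p = 0.0648).

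Cxcr3 rose by 1.48 ± 0.33 in females and 2.20 ± 0.34 in males on the log2 scale (edgeR adjusted p = 0.0189 and 0.00247). Cxcl10 rose by 2.61 ± 0.59 in females (edgeR adjusted p = 0.0190), while its value in males, 1.58 ± 0.57, did not pass (adjusted p = 0.124). It passed in males without female leukemic replicate 1 (1.59, adjusted p = 0.0263) or male non-leukemic replicate 3 (2.27, adjusted p = 0.0401), and with DESeq2 on all libraries (1.58, adjusted p = 0.0415). DESeq2 also called Cxcl2 higher in females (0.91, adjusted p = 0.0486), which edgeR did not (0.89 ± 0.33, adjusted p = 0.120).

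Cxcr2 was at 40.9, 63.9 and 36.3 CPM in female leukemic libraries, against 30.001, 54.6 and 29.4 CPM in female non-leukemic libraries. In males it was at 30.3, 27.9 and 24.8 CPM in leukemic libraries, all below the 35.6, 69.0 and 117 CPM of the non-leukemic libraries. The log2 fold change was 0.30 ± 0.40 in females (edgeR adjusted p = 0.713) and -1.59 ± 0.40 in males (edgeR adjusted p = 0.0342). The male call was lost with replicate number as a block (adjusted p = 0.0652), in a fit of male libraries only (adjusted p = 0.0593) and in 7 of the 12 fits that left out a library, with adjusted p up to 0.142 (male leukemic replicate 3). Without male non-leukemic replicate 3 the value was -1.03 (adjusted p = 0.107).

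The difference between the sexes was tested itself, as an interaction. It passed for 0 of 10 members and for 0.0% of all genes tested with edgeR, and for 0 members with DESeq2. At an unadjusted p under 0.05 stood 3 members and 5.87% of all genes tested. Female minus male effects on the log2 scale were 1.89 ± 0.56 for Cxcr2, 0.79 ± 0.31 for Cxcr4 and 1.06 ± 0.46 for Cxcl2 (SE, edgeR adjusted p = 0.815, 0.819 and 0.819). A sex difference was thus not detectable with 3 libraries per group, and the effects are not shown to be alike.

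Calls within a sex were lost in fits that left an arm of 2 libraries. In females 1, 1 and 0 members passed without non-leukemic replicate 1, 2 or 3: Cxcr3 alone (just past the threshold), Cxcl9 alone (adjusted p = 0.0387) and none. In males 1 member, Cxcr3, passed without non-leukemic replicate 2, and Cxcl9 and Cxcr3 passed without leukemic replicate 2. The folds stayed above 0 throughout. Over the 12 omissions the log2 fold change ran from 1.88 to 2.97 for Cxcl9, 1.63 to 3.01 for Cxcl10, 1.15 to 1.78 for Cxcr3 and 1.52 to 2.90 for Cxcr6 in females. In males it ran from 2.58 to 3.69 for Cxcl9, 2.01 to 2.53 for Cxcr3 and 2.26 to 2.69 for Cxcr6.

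**Figure D3:**
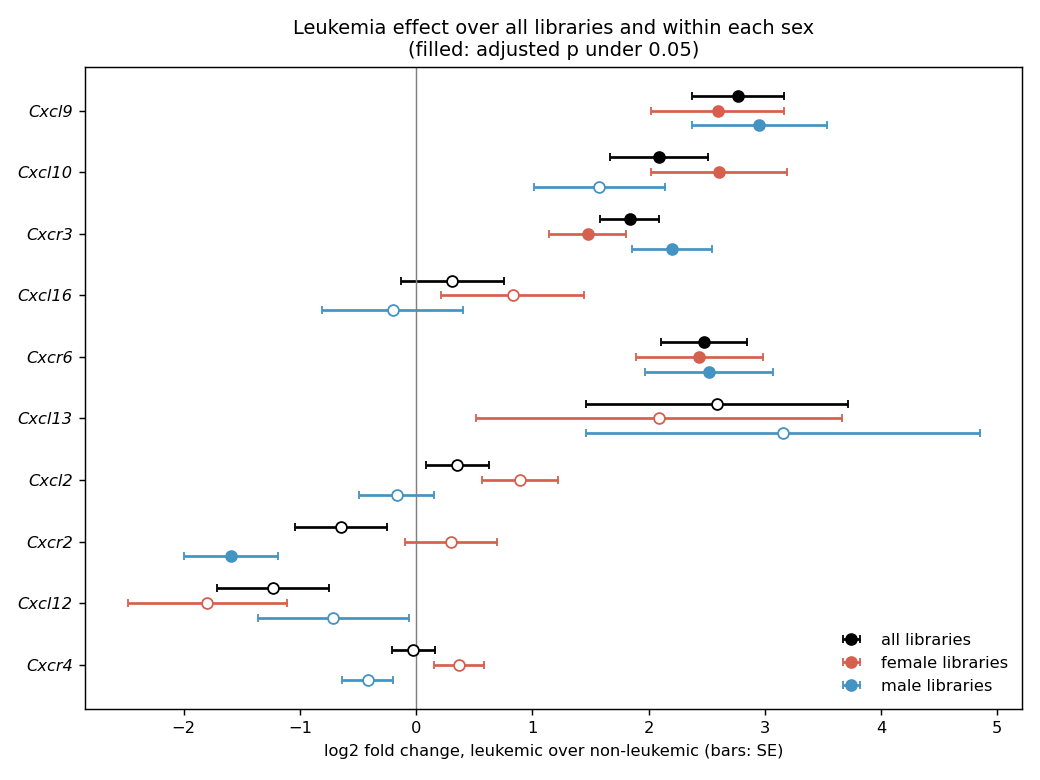
Log2 fold change of each gene, leukemic over non-leukemic, over all 12 libraries (black), in females (red) and in males (blue), with bars of 1 SE and filled points where the edgeR adjusted p was under 0.05. Cxcl9, Cxcr3 and Cxcr6 are filled in all 3 fits, and Cxcr2 lies at 0.30 in females and -1.59 in males.

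Among 13 other CXC ligands and receptors, 8 were tested, 0 rose and 1 fell, where 17.9% of all genes tested passed (8.71% higher, 9.2% lower). Their median log2 fold change was 0.38, against -0.01 over all genes tested. The gene that fell was Ackr1, a decoy receptor of erythroid and endothelial cells that binds chemokines without signalling. It was at 1.42 ± 0.55 CPM in leukemic and 31.0 ± 12.6 CPM in non-leukemic libraries (SD, n = 6 each), a log2 fold change of -4.44 ± 0.34 (SE, edgeR adjusted p = 4.37e-06). All 8 markers of erythroid cells fell in the same libraries (median log2 fold change -4.33), and their part in the fall of Ackr1 was not tested.

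Cxcl11, the remaining ligand of Cxcr3, did not pass the filter: it had 32 counts over the leukemic and 10 over the non-leukemic libraries. The neutrophil attractants Cxcl1 and Cxcl5 had 13 counts each in leukemic and 0 in non-leukemic libraries. All 13 counts of Cxcl1 were in male leukemic replicate 3, and Cxcl5 was at 0 in 4 of the 6 leukemic libraries. The platelet chemokine Pf4 did not pass, at 74.6 ± 45.8 CPM in leukemic and 69.0 ± 18.0 CPM in non-leukemic libraries (SD, n = 6 each).

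Of 16 genes that induce Cxcl9 and Cxcl10, 15 were tested, 3 rose and 0 fell, where 17.9% of all genes tested passed and 8.71% rose, and the median log2 fold change was 0.21. Ifng, the interferon made by T cells and NK cells, was at 10.6 to 42.1 CPM in leukemic and 1.25 to 4.12 CPM in non-leukemic libraries, a log2 fold change of 3.26 ± 0.43 (SE, edgeR adjusted p = 0.000226). Its highest library was female leukemic replicate 1, as for Cxcl9 and Cxcl10. That library also had the most T and NK cell marker counts (2528 CPM) and the most macrophage marker counts of the leukemic libraries (1163 CPM). T and NK cell markers rose in the same libraries as Ifng, and their part in its rise was not tested. Irf1, a transcription factor that interferon gamma induces, was at 107 to 152 CPM in leukemic and 41.1 to 70.8 CPM in non-leukemic libraries, and rose by 1.10 ± 0.15 on the log2 scale (SE, edgeR adjusted p = 0.000363). The states did not overlap for Ifng or for Irf1. The inducer Ifnb1 had no count in any library.

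A list of 16 genes held inducers of Cxcl1 and Cxcl2 together with inhibitors of the same pathway. Of these 2 rose and 1 fell, a share near the 17.9% of all genes tested, and their median log2 fold change was 0.12. No inducer on the list rose: Tnfaip3 and Nfkbia, feedback inhibitors of NF-kB, rose by 1.69 ± 0.30 and 0.63 ± 0.16 (SE, edgeR adjusted p = 0.00195 and 0.0145), and the receptor gene Tlr2 fell by 0.87 ± 0.28 (edgeR adjusted p = 0.0465). Among 27 genes of receptor signalling and ligand processing, 7 rose and 2 fell, against 17.9% of all genes tested, with a median log2 fold change of 0.28. Rgs1, a brake on receptor signalling, rose by 1.98 ± 0.32, and Dpp4, a protease that trims Cxcl9, Cxcl10 and Cxcl12, rose by 0.92 ± 0.15 (SE, edgeR adjusted p = 0.000987 and 0.00103). A related brake, Rgs16, was at 5.28 to 15.1 CPM in female leukemic libraries, against 0.70 to 1.77 CPM in female non-leukemic libraries. In males Rgs16 was at 30.5 to 62.9 CPM in leukemic libraries and at most 0.18 CPM, near the floor, in non-leukemic libraries. Its log2 fold change was 2.99 ± 0.56 in females (edgeR adjusted p = 0.00809), and the 5.14 ± 0.95 over all libraries (adjusted p = 0.00252) rests in part on male libraries with almost no counts. Arrb1, the adaptor beta-arrestin, fell by 1.36 ± 0.21 and the neutrophil protease gene Mmp9 by 1.21 ± 0.29 (edgeR adjusted p = 0.000850 and 0.0115). Gnai3, a G protein subunit, rose by 0.42 ± 0.10 (edgeR adjusted p = 0.0125), and Adam17, Gng2 and Elmo1 also rose. T and NK cell and neutrophil markers moved in the same libraries, and their part in these changes was not tested.

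**Figure D4:**
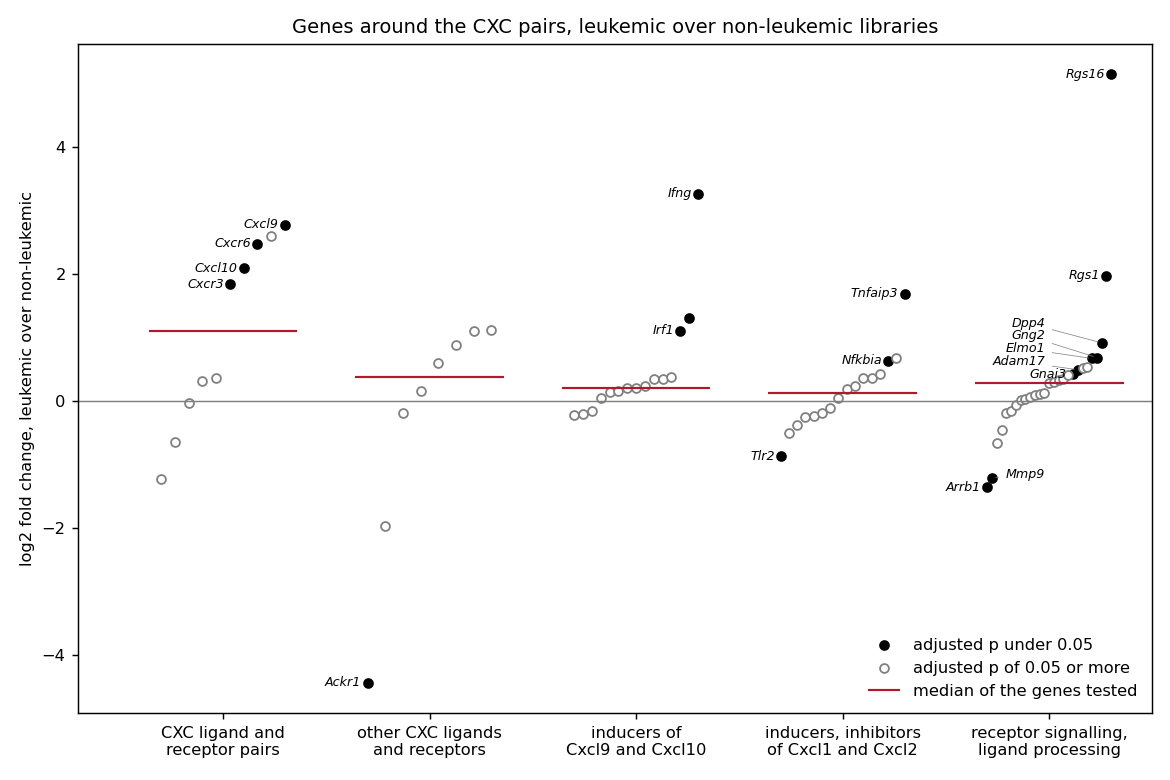
Log2 fold change, leukemic over non-leukemic, of each tested gene in 5 lists (horizontal), with black points for an edgeR adjusted p under 0.05, open points otherwise and a red line at the median of each list. Names mark passed genes that the text gives: 4 of the 10 pair members, Ifng and Irf1 stand above 0, while Ackr1 stands at -4.44.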

How the data were processed

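Per the labels, RNA from sorted cells was amplified as full-length cDNA with the SMARTer kit, which marks no strand, and made into libraries with Nextera XT. The deposited values are raw read counts per gene, 1 column per library. Per the submitters' processing notes the tools included STAR 2.7.9a, Subread 2.0.1 and DESeq2 1.28.1 with build GRCm39, with no order or settings. Counts were filtered with filterByExpr over the 4 groups and scaled by TMM. They were tested with edgeR 4.0.16 (quasi-likelihood F test, robust, sex as a term, or 4 group means for the sexes and their interaction) in R 4.3.3, and p were adjusted by Benjamini and Hochberg over all genes tested. An adjusted p under 0.05 passed. SE is the log2 fold change divided by the square root of F. All tests were two-sided. CPM use total counts. Ratios used a prior of 0.5 CPM.

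Likeness is Spearman's rho of log2 CPM (prior count 2) after subtracting each state's mean, over genes with a mean log2 CPM of at least 2. The first 3 in rank are named, with ties said beside them. The mean of each sex was not subtracted, so differences between the sexes enter rho. All 10 members were named, with values for list genes that passed, up to 6 per list by lowest p. One list gene that passed is not reported here by name. Other named genes, and the ratios to markers, were chosen after their values were seen. The members and lists were chosen with earlier results of these data known. Scripts were tested on simulated data. Alternatives were RLE size factors, DESeq2 1.42.0, limma-voom (limma 3.58.1), 2 other filters, no sex term, a replicate block, a fit of 1 sex only, a minimum change of 1.5-fold and leaving out libraries.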

Additional observations from a re-analysis of the deposited data

Results flagged for a closer look

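A library stood apart from the other 5 of its state (its gap to the nearest of them, over the range, was above Dixon's critical value) in 5 of 20 sets of CPM values. The sets share the same 12 libraries and pool both sexes, so this count is not compared with a rate under chance. In leukemic libraries these were Cxcl10 at 45.5 CPM in female replicate 1 and Cxcl12 at 6.29 CPM in male replicate 2. Female replicate 1 also had the most Ifng (42.1 CPM) and the most T and NK cell marker counts (2528 CPM). Male replicate 2 also had the most Col1a1 of the leukemic libraries (24.2 CPM) but not the most Col1a2 (20.03 CPM, against 23.0 CPM in male replicate 1). In non-leukemic libraries they were Cxcl10 at 9.97 CPM and Cxcl16 at 56.7 CPM, both in male replicate 3, which had the most macrophage marker counts (4574 CPM), and Cxcl13 at 1.34 CPM in female replicate 1. The part of these genes and markers in the values was not tested.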

How the results depend on the processing

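Cxcl9, Cxcl10, Cxcr3 and Cxcr6 passed and were higher under every alternative run over all libraries, single omissions included, with 4 to 5 members passing in those omissions and 4 to 6 otherwise (6 with limma-voom). Over all genes 2822 passed, 2108 to 3910 with a library left out, 978 against a minimum change of 1.5-fold (fewer by construction) and 4717 with both libraries that stand apart left out (replicate 1 of female leukemic, replicate 3 of male non-leukemic), a choice that followed earlier results of these data. Without these libraries the ratio of Cxcl9 and Cxcl10 to Cxcr3 differed by 0.59 and passed (exact permutation, adjusted p = 0.0317), and the cause was not tested. With a library left out that ratio ran from 0.42 to 0.72 and that of Cxcl12 to Cxcr4 from -1.53 to -0.79. Ratio alternatives were added after seeing the data. Members passing ran from 0 to 4 in females and from 1 to 5 in males with a library left out. An arm left with 2 libraries has little precision.

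The Cxcr4 fold change turned to 0.0021 without the sex term and ran from -0.17 to 0.0653 over single omissions. In males Cxcl16 turned to 0.0007 with the replicate block, and with a library left out Cxcl16 ran from -0.64 to 1.03 and Cxcl2 from -0.36 to 0.12. The interaction ran from -1.10 to 0.0526 for Cxcl9, -1.51 to 0.27 for Cxcl12, -6.10 to 5.41 for Cxcl13, -0.21 to 1.51 for Cxcl16 and -1.02 to 0.36 for Cxcr6. None of these values passed, and the cause was not tested.

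Replicate numbers did not pair the libraries: 0 of 18 same-numbered pairs had deviations correlated over 0.1 (-0.11 to 0.08), and 6 of 12 libraries fitted best with their own number. With the replicate block 2509 genes and 4 members passed, with 3 in males and 4 in females. Depth limits Cxcl13 and Cxcl12, which had 38 to 403 counts per state.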

Other observations

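Cxcl2 and Cxcr3 varied in opposite directions within states (Spearman's rho -0.76 over 12 libraries), and Cxcl2 and Cxcl12 varied together (0.66). The mean of each sex was not subtracted, so differences between the sexes enter both values. In the non-leukemic libraries, Cxcl12 was at 1.85 to 2.29 CPM in females and 3.82 to 4.97 CPM in males. Cxcl2 was at 2.82 to 3.15 CPM in females and 5.16 to 10.5 CPM in males there. Cxcr3 was at 22.2 to 30.2 CPM in females and 10.8 to 20.4 CPM in males. These sex differences were seen in the values and were not tested. Of the members, 6 of 10 had their highest leukemic value in female leukemic replicate 1.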
